A study of Mus musculus with 12 samples.

Results

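Type IV collagen is built from 6 chains, and the transcripts of all 6, Col4a1, Col4a2, Col4a3, Col4a4, Col4a5 and Col4a6, were examined here in mouse glomeruli. The members were taken by gene symbol, and each of the 6 was found among the 26264 genes counted and among the 17002 genes that passed the filter on low counts. The α1 and α2 chains (Col4a1 and Col4a2) were compared with the α3, α4 and α5 chains (Col4a3, Col4a4 and Col4a5). Glomeruli came from 8-week-old male mice of a pair of BALB/c substrains, BALB/cByJcl (ByJcl) and BALB/cAjcl (Ajcl). Baseline mice of both substrains were untreated, and Day 5 mice had received adriamycin (ADR), the anthracycline doxorubicin, once at 10 mg/kg into the retro-orbital vein 5 days earlier. Each of the 4 groups held 3 RNA-seq libraries. No saline-injected group at Day 5 was analysed here.

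Collagen IV is the sheet-forming collagen of basement membranes. Its chains assemble inside the cell into triple-helical protomers of fixed composition, namely α1α1α2, α3α4α5 and α5α5α6, which are secreted and joined into networks. The α1α1α2 network is found in nearly all basement membranes and, in the adult glomerulus, mainly in the mesangial matrix and along the endothelial side of the membrane. The mature glomerular basement membrane carries the α3α4α5 network, made by podocytes, and loss of any of these chains causes Alport syndrome, while the α5α5α6 network belongs to Bowman's capsule.

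The genes lie in head-to-head pairs, and the genes of each pair are transcribed outward in opposite directions (GRCm39, GENCODE annotation). Col4a1 (ENSMUSG00000031502, minus strand, chromosome 8, 11248423 to 11362826) and Col4a2 (ENSMUSG00000031503, plus strand, 11362471 to 11499287) overlap at their 5′ ends by 356 bases, of which 311 are exonic in both. Col4a4 (ENSMUSG00000067158, minus strand, chromosome 1, 82426144 to 82564800) and Col4a3 (ENSMUSG00000079465, plus strand, 82564642 to 82699780) overlap by 159 exonic bases. Col4a6 (ENSMUSG00000031273, minus strand, chromosome X, 139948399 to 140257072) and Col4a5 (ENSMUSG00000031274, plus strand, 140258354 to 140472231) do not overlap and are 1281 bases apart. The setting that handles strand in the authors' counting is not given in the sources used here, so reads from the shared bases of a pair may have been split between the genes or dropped.

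Short stretches upstream of the annotated RefSeq starts are shown because the genes of a pair lie head to head. The starts of Col4a6 and Col4a5 are 1342 bases apart, and the stretches shown for this pair are separate. RefSeq windows existed for 5 of the 6 genes, and all 5 matched GRCm39 once. They were searched on both strands over 250 bases before the start for the TATA box TATAAA, the CCAAT box and the GC box GGGCGG, which do not overlap each other in these windows. Matches are in capitals, in the orientation of each gene, so that ATTGG is the CCAAT box and CCGCCC the GC box read from the other strand. Each of the first 3 stretches lies in an annotated exon and was limited to 30 bases, and the other 2 lie outside annotated exons.
Col4a1, chr8:11362954-11362983, minus strand: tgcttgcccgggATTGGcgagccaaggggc
Col4a2, chr8:11362761-11362790, plus strand: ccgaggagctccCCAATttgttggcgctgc
Col4a4, chr1:82564571-82564600, minus strand: gtggccagcagccctgcccagattaagcgg
Col4a5, chrX:140258204-140258353, plus strand: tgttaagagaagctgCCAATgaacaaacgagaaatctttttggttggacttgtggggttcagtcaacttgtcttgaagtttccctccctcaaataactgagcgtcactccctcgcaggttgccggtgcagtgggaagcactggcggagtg
Col4a6, chrX:140257073-140257222, minus strand: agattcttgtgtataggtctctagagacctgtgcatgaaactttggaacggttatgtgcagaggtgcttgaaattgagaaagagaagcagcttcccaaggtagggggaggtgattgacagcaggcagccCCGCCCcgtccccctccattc

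None of the 5 windows held TATAAA, a motif found in 12.4% of 32851 RefSeq windows of the same length. A CCAAT box stood 145 bases before the start of Col4a1, 32 before Col4a2 and 196 before Col4a5, and 33.8% of all windows held one. The GC box occurred in the windows of Col4a2, Col4a5 and Col4a6, as in 32.7% of all windows. The Col4a4 window held none of the motifs.

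Total counts per library ranged from 42198416 to 54687045. Levels are counts scaled to the TMM-adjusted library size (CPM), group values are means ± SD, and p-values come from the quasi-likelihood test of edgeR, adjusted over 17002 genes by the Benjamini-Hochberg method and called below 0.05. Ajcl Day 5 library 1, which the study sets aside for reduced glomerular purity, stayed out of the tests, so this group has n = 2 there, and its values are given separately. It had the highest summed level of 6 distal nephron markers, 2022 CPM against 92.4 to 1649 CPM in the other 11 libraries, and its 3044 CPM of 6 proximal tubule markers stood beside 3043 CPM in an Ajcl baseline library. Baseline and Day 5 counts were deposited as separate tables, so a difference between the tables and the effect of ADR cannot be told apart.

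Col4a1, the more abundant chain of its protomer, was highest in ByJcl glomeruli after ADR. It measured 433.5, 570 and 637 CPM in Ajcl at baseline, 580 and 807 CPM in Ajcl at Day 5 with 434 CPM in the library set aside, 619, 795 and 652 CPM in ByJcl at baseline, and 1638, 1285 and 1053 CPM in ByJcl at Day 5. Every ByJcl Day 5 library was above every library of the other 3 groups, which overlapped one another. From baseline to Day 5 Col4a1 rose in ByJcl from 689 ± 93.9 to 1325 ± 295 CPM (SD, n = 3 each), a log2 fold change (log2FC) of 0.98 (edgeR adjusted p = 0.0155, SE 0.21). In bulk glomerular RNA, a change in the number of cells that make a transcript and a change in the amount each cell holds cannot be told apart.

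Col4a2, its partner in the α1α1α2 protomer, had the same order of groups. Its levels were 260, 357 and 396 CPM in Ajcl at baseline, 340 and 561.5 CPM in Ajcl at Day 5 with 263 CPM in the library set aside, 432, 510 and 391 CPM in ByJcl at baseline, and 1315, 975 and 774 CPM in ByJcl at Day 5. Again the ByJcl Day 5 libraries lay above all others. Col4a2 rose in ByJcl from 444 ± 60.2 to 1021 ± 274 CPM (SD, n = 3 each), and the log2FC was 1.23 (edgeR adjusted p = 0.0122, SE 0.25).

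Col4a3, the chain whose domain carries the Goodpasture epitope, moved the other way in ByJcl. Ajcl baseline libraries held 1066, 1767 and 1313 CPM, Ajcl Day 5 libraries 1304 and 1153 CPM with 572 CPM in the library set aside, ByJcl baseline libraries 2079, 1735 and 1719 CPM, and ByJcl Day 5 libraries 1072, 1062 and 1047 CPM. The ByJcl Day 5 libraries were all below the ByJcl baseline libraries and nearly equal to each other. Col4a3 fell in ByJcl from 1844 ± 203 to 1060 ± 12.4 CPM (SD, n = 3 each), and the log2FC was -0.77 (edgeR adjusted p = 0.0213, SE 0.18). With Ajcl Day 5 library 1 in the fit, the log2FC was -0.76 and the call was lost (adjusted p = 0.117, edgeR).

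Col4a4, which pairs with Col4a3 on the chromosome and in the protomer, had 401, 738 and 610 CPM in Ajcl at baseline, 640 and 601 CPM in Ajcl at Day 5 with 286 CPM in the library set aside, 834, 803 and 768 CPM in ByJcl at baseline, and 510, 565 and 537 CPM in ByJcl at Day 5. The 2 ByJcl groups did not overlap. Its log2FC from baseline to Day 5 in ByJcl was -0.55 (95% interval -0.95 to -0.15), which did not pass the threshold (adjusted p = 0.0785, edgeR) but did with DESeq2 (adjusted p = 0.0341).

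Col4a5, the third chain of the α3α4α5 protomer and also a chain of α5α5α6, was higher at Day 5 than at baseline in both substrains. It measured 150, 224 and 175 CPM in Ajcl at baseline, 256.5 and 330 CPM in Ajcl at Day 5 with 188 CPM in the library set aside, 237, 206 and 232 CPM in ByJcl at baseline, and 344, 313 and 306 CPM in ByJcl at Day 5. In ByJcl the groups did not overlap, and in Ajcl only the library set aside lay within the baseline range. The log2FC was 0.54 in ByJcl (95% interval 0.18 to 0.90, adjusted p = 0.0595, edgeR) and 0.70 in Ajcl (95% interval 0.30 to 1.10, adjusted p = 0.190, edgeR). Neither passed the threshold in edgeR, and DESeq2 gave adjusted p of 0.0130 in ByJcl and 0.0252 in Ajcl.

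Col4a6, the chain of Bowman's capsule and smooth muscle membranes, was scarce, with 28 to 178 counts per library. At baseline it measured 1.12, 1.27 and 0.597 CPM in Ajcl and 1.38 to 1.47 CPM in ByJcl. At Day 5 it was at 1.30 and 3.26 CPM in Ajcl, with 0.691 CPM in the library set aside, and at 2.58, 4.03 and 2.56 CPM in ByJcl. The ByJcl groups did not overlap, but the log2FC of 1.13 in ByJcl did not pass the threshold (edgeR adjusted p = 0.0889, SE 0.39), while DESeq2 gave an adjusted p of 0.0347. The plot of levels by library shows the 6 chains side by side.

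**Figure D1:**
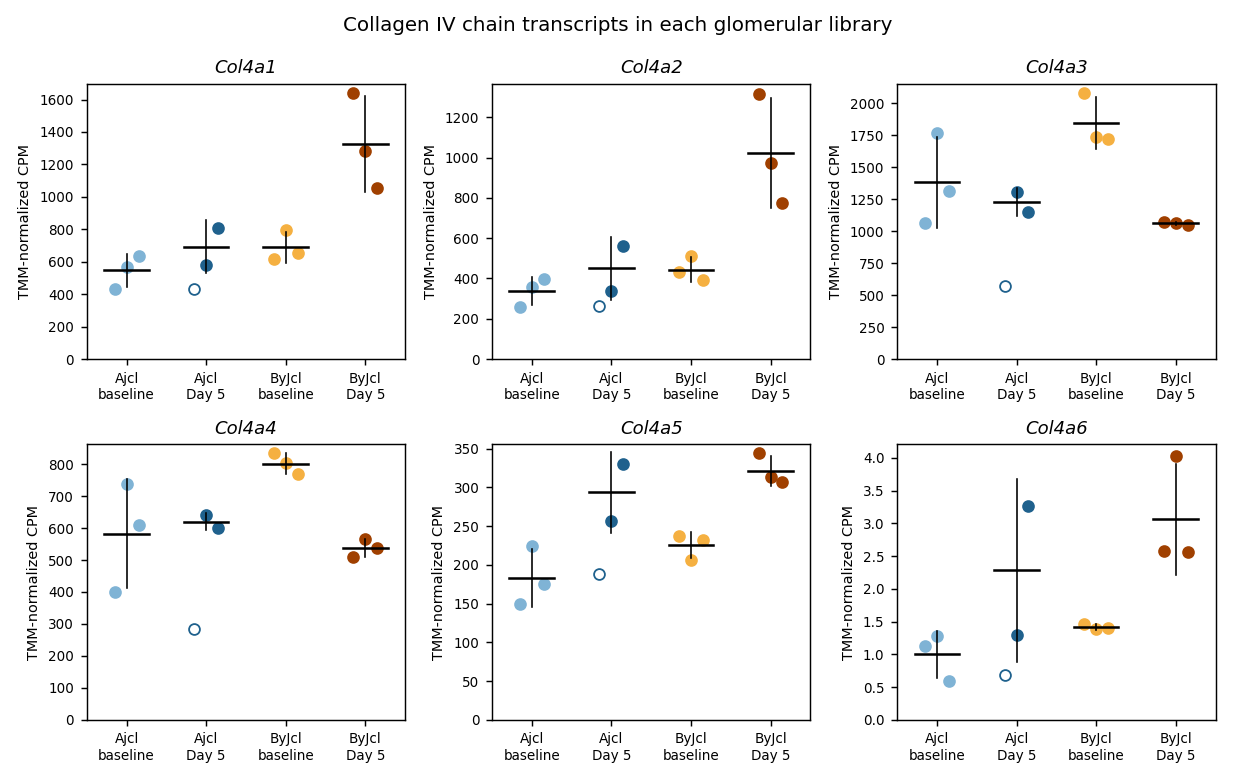
TMM-normalized CPM of each collagen IV chain (vertical axes from 0) in the 12 libraries by group, with points for libraries, horizontal bars for means and vertical lines for SD, both without the open point, which is Ajcl Day 5 library 1. ByJcl Day 5 libraries were above the ByJcl baseline libraries for Col4a1 (1325 against 689 CPM on average), Col4a2, Col4a5 and Col4a6 and below them for Col4a3 (1060 against 1844 CPM) and Col4a4.

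Levels of different chains were ranked per kilobase of exon of the canonical transcript. Col4a3 led at baseline, with 162 ± 41.5 CPM per kilobase in Ajcl glomeruli and 216 ± 23.8 in those of ByJcl (SD, n = 3 each), above the next chain in every library of its group. Col4a1 was next, at 82.7 ± 15.7 and 104 ± 14.2 CPM per kilobase, followed by Col4a4, Col4a2, Col4a5 and, far lower, Col4a6 at 0.150 and 0.213. The ranges of Col4a4 and Col4a2 overlapped in both substrains, and those of Col4a1 and Col4a4 in Ajcl, although within each baseline library the order of these neighbours was the same, 3 of 3 in each group. Col4a4 and Col4a2 were nearly equal in Ajcl baseline library 1, 38.8 against 38.6 CPM per kilobase, and in library 3, 59.0 against 58.7. Their order in these libraries rests on the exon lengths used. At Day 5 in ByJcl the order was Col4a1 with 200.4 ± 44.6, Col4a2 with 151 ± 40.5, Col4a3 with 124 ± 1.45, Col4a4 with 52.0 ± 2.65 and Col4a5 with 48.9 ± 3.03 CPM per kilobase (SD, n = 3 each). There Col4a1 was above Col4a2 within each of the 3 libraries although their ranges overlapped, while Col4a2 was above Col4a3 in 2 of 3 libraries and Col4a4 above Col4a5 in 2 of 3. In Ajcl at Day 5 Col4a3 still had the highest mean, 118 ± 45.2 CPM per kilobase over 3 libraries, the one set aside included. Its range overlapped that of Col4a1 at 91.7 ± 28.5, and it was above Col4a1 within each of the 3 libraries. Without the library set aside, which held 66.8 for Col4a3, the means were 143.6 ± 12.45 for Col4a3 and 104.8 ± 24.3 for Col4a1 (SD, n = 2). Those ranges did not overlap.

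As a share of the length-scaled total of the 6 chains, Col4a1 and Col4a2 together made up 35.8%, 30.8% and 39.3% in the Ajcl baseline libraries and 30.4% to 38.5% in ByJcl at baseline. In Ajcl at Day 5 the share was 45.9% in the library set aside, 35.2% and 45.7%. In ByJcl at Day 5 it was 66.1%, 59.9% and 55.3%. Hence the α1 and α2 transcripts were the minority in 9 libraries and the majority only in the 3 ByJcl Day 5 libraries. The total of the 6 chains was 498 ± 26.7 CPM per kilobase in ByJcl at baseline and 577 ± 87.9 at Day 5 (SD, n = 3 each), and the lowest total, 228, belonged to Ajcl Day 5 library 1.

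**Figure D2:**
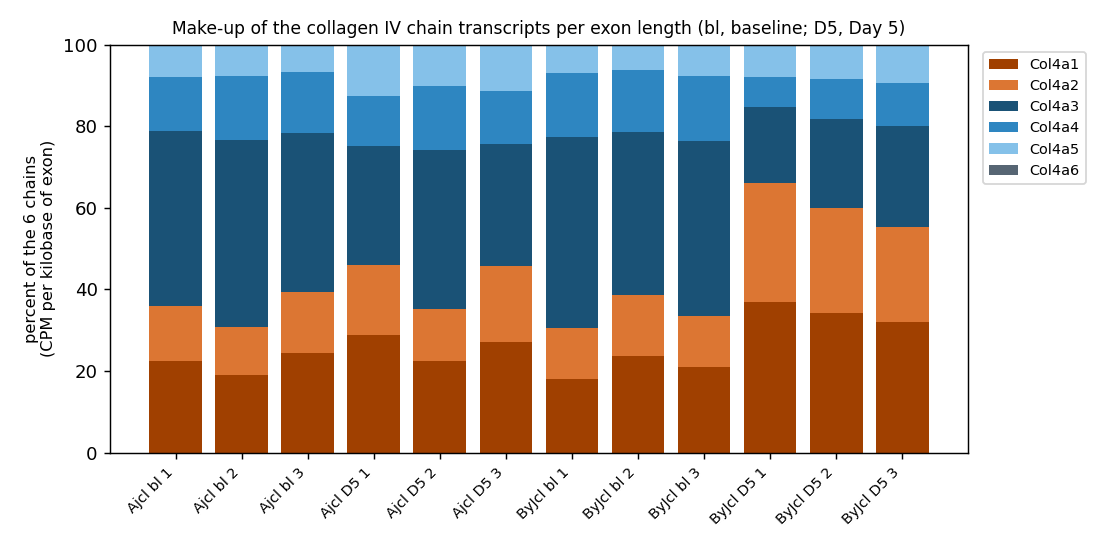
Share of each chain (percent, stacked to 100) in the summed CPM per kilobase of exon of the 6 chains in each of the 12 libraries. The brown bars, Col4a1 and Col4a2, reach 55.3% to 66.1% in the ByJcl Day 5 libraries and 30.4% to 45.9% in the others, and Col4a6 is too scarce to be seen.

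The log2 ratio of summed Col4a1 and Col4a2 CPM to summed Col4a3, Col4a4 and Col4a5 CPM describes this shift in 1 value per library, and no p-value is attached to it because it is a score over the members. This ratio and those below are of CPM not divided by length, so they serve to compare libraries and their sign does not say which chains are more abundant. It was -1.22, -1.56 and -1.02 in Ajcl at baseline, -1.26 and -0.61 in Ajcl at Day 5 with -0.59 in the library set aside, -1.58, -1.07 and -1.38 in ByJcl at baseline, and 0.62, 0.22 and -0.05 in ByJcl at Day 5. All ByJcl Day 5 libraries lay above all others, and the other groups overlapped. Between baseline and Day 5 the mean ratio differed by 1.61 in ByJcl, a 3.05-fold difference, and by 0.33 in Ajcl, where without library 3 of Ajcl Day 5 the difference was 0.01 and without library 2 it was 0.66. The pooled SD within groups was 0.32. Between substrains the ratio differed by -0.08 at baseline and by 1.195 at Day 5.

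The ratios within 2 of the 3 pairs spanned less than the ratio between them. Over all 12 libraries the log2 ratio of Col4a1 to Col4a2 spanned 0.45 and that of Col4a3 to Col4a4 0.50, whereas that of Col4a1 to Col4a3 spanned 2.36. The ratio within the pair on chromosome X, Col4a5 to Col4a6, spanned 1.92, with as few as 28 counts of Col4a6 in a library. The ByJcl Day 5 libraries had the lowest Col4a1 to Col4a2 ratios, 0.32 to 0.44 on the log2 scale, below the 0.52 to 0.77 of the other 9 libraries. The Col4a3 to Col4a4 ratio at Day 5, 0.91 to 1.07, was below the baseline values of 1.11 to 1.41 in both substrains.

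Col4a5 did not keep a fixed ratio to Col4a3 although both belong to 1 protomer. The log2 ratio of Col4a5 to Col4a3 was -2.98 to -2.83 in Ajcl and -3.13 to -2.89 in ByJcl at baseline. It was -2.35 and -1.80 in Ajcl at Day 5, with -1.60 in the library set aside, and -1.77 to -1.64 in ByJcl. Every Day 5 library, the one set aside included, was above every baseline library, with a mean difference of 1.31 in ByJcl and, in Ajcl, of 0.83 without the library set aside and 0.99 with it. This describes a relative shift, since Col4a3 was lower and Col4a5 higher in the ByJcl Day 5 libraries.

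**Figure D3:**
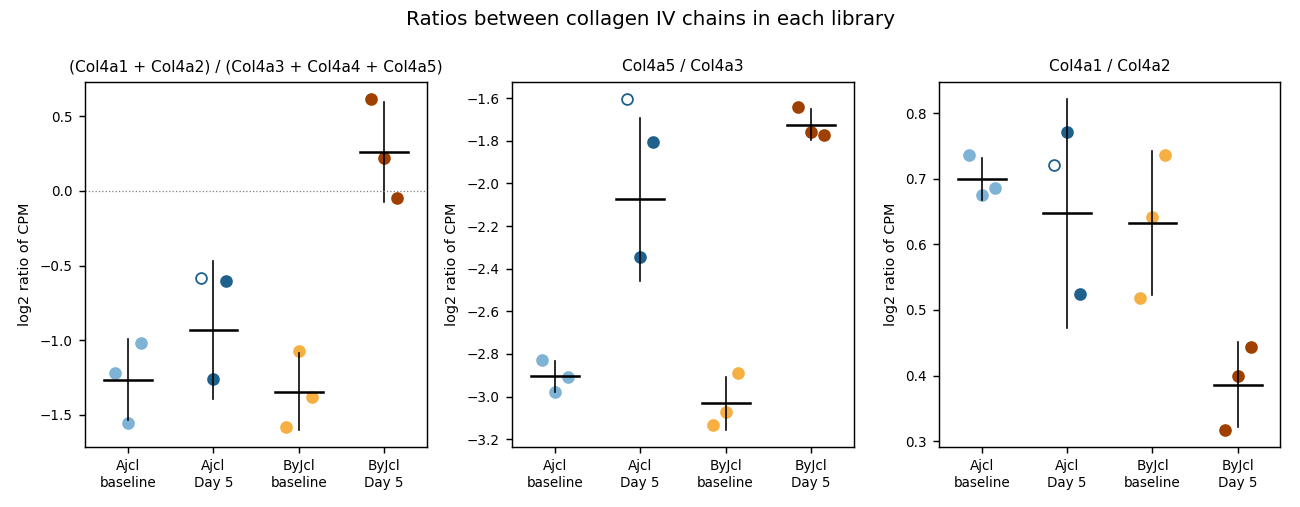
Log2 ratios of CPM per library for the α1 and α2 chains against the α3, α4 and α5 chains, for Col4a5 against Col4a3 and for Col4a1 against Col4a2, by group, with means, SD lines and the open point as Ajcl Day 5 library 1. The first ratio averages 0.26 in ByJcl at Day 5 and -1.35 in ByJcl at baseline, and the second is at -2.35 or above in every Day 5 library and at -2.83 or below in every baseline library.

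ADR in ByJcl gave the only calls among the chains in edgeR. Of the 6 chains, 2 rose and 1 fell, against 10.6% of all genes called in this comparison, 5.75% higher and 4.83% lower. DESeq2 called all 6 chains, 4 higher and 2 lower, where it called 15.8% of all genes, but with all 12 libraries it called only 2, Col4a1 and Col4a2. The groups did not overlap for any of the 6 chains, as for 33.6% of all genes tested. The median log2FC of the chains was 0.76, beside 0.01 for all genes, but it joins members of opposite direction. The call of Col4a1 was lost without ByJcl baseline library 1 (adjusted p = 0.0597, edgeR) and without library 3 (adjusted p = 0.0565, edgeR), and that of Col4a3 without any of 4 ByJcl libraries, with adjusted p of 0.0522 to 0.0796 (edgeR). Col4a2 was called each time.

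In Ajcl none of the chains passed the threshold in edgeR after ADR, with 2 at an unadjusted p below 0.05 (Col4a5 and Col4a6), and DESeq2 called Col4a5 alone, a call lost with all 12 libraries (adjusted p = 0.312, DESeq2). All genes were called at 0.312% by edgeR and 1.77% by DESeq2, and 1666 of 17002 had an unadjusted p below 0.05 in edgeR. Col4a1 had a log2FC of 0.37 (95% interval -0.14 to 0.88) and Col4a2 of 0.44 (95% interval -0.16 to 1.04), and both intervals included no change. These values rested on single Day 5 libraries: Col4a1 was at 0.06 without library 3, 0.59 without library 2 and 0.16 with all 12 libraries, and Col4a2 at -0.02, 0.77 and 0.21. Col4a3 and Col4a4 had log2FC of -0.16 and 0.10, and with the library set aside added they were -0.45 and -0.19. Groups did not overlap for 2 of the 6 chains over the 11 libraries, beside 25.6% of all genes. With the library set aside added, the groups of every chain overlapped, and the share of all genes over 12 libraries was not computed.

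At baseline each chain had a higher mean in ByJcl than in Ajcl, with log2FC from 0.32 for Col4a5 to 0.52 for Col4a6, but none passed the threshold in either tool. Unadjusted p was below 0.05 for Col4a3 and Col4a4 in edgeR, whose adjusted p were 0.583 and 0.577. The background was 0.159% of genes called by edgeR and 0.631% by DESeq2, with 1418 of 17002 at an unadjusted p below 0.05 in edgeR. The median log2FC was 0.43 for the chains and 0.01 for all genes. Col4a4 and Col4a6 did not overlap between the substrains, 2 of 6 beside 14.5% of all genes. Summed levels of 14 podocyte markers were 18500 to 25050 CPM in Ajcl and 23310 to 25940 CPM in ByJcl at baseline, and their part in these differences was not tested. Summed distal nephron markers were 525 to 1649 CPM in Ajcl and 134 to 542 CPM in ByJcl at baseline, and their part was not tested either. At baseline the sums of fibroblast markers, 89.5 to 111 CPM in Ajcl and 123 to 185 CPM in ByJcl, and of immune markers, 39.9 to 63.2 CPM and 66.6 to 114 CPM, did not overlap between the substrains, and their part was not tested.

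At Day 5 the widest estimates between substrains were those of Col4a1 and Col4a2. Log2FC of ByJcl relative to Ajcl were 0.96 for Col4a1 (95% interval 0.43 to 1.49, adjusted p = 0.143, edgeR) and 1.21 for Col4a2 (95% interval 0.58 to 1.84, adjusted p = 0.125, edgeR), and neither was called. These were also the only chains with an unadjusted p below 0.05, and the only ones called by DESeq2, with adjusted p of 0.00445 and 0.00149. edgeR called 0.165% of all genes here and DESeq2 3.49%, and 2374 of 17002 had an unadjusted p below 0.05 in edgeR. For Col4a3 and Col4a4 the log2FC was -0.18 each, and with the library set aside added they were 0.10 and 0.11. Groups did not overlap for 4 of the 6 chains over the 11 libraries, beside 32.3% of all genes. With the library set aside added, Col4a3 and Col4a4 overlapped, while Col4a1 and Col4a2 still did not. The share of all genes over 12 libraries was not computed. Summed distal nephron markers were 802 to 2022 CPM in Ajcl and 92.4 to 501 CPM in ByJcl at Day 5, with no overlap. Neither did the sums of smooth muscle markers overlap at Day 5, 523 to 549 CPM in Ajcl and 697 to 833 CPM in ByJcl, nor those of immune markers, 32.4 to 64.7 CPM and 69.0 to 122 CPM. The Ajcl ranges here include the library set aside, and the part of these cells in the differences was not tested. This comparison and the comparisons after ADR share the Day 5 libraries and are not independent of each other.

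The difference between the substrains in the change after ADR was tested directly as an interaction, and no chain passed the threshold. The estimates were 0.61 for Col4a1 (95% interval -0.08 to 1.30), 0.79 for Col4a2 (-0.03 to 1.61), -0.62 for Col4a3 (-1.20 to -0.03) and -0.66 for Col4a4 (-1.25 to -0.06) on the log2 scale, with adjusted p of 0.620 to 0.643 (edgeR). With all 12 libraries the estimates for Col4a3 and Col4a4 were -0.31 and -0.34, and those for Col4a1 and Col4a2 were 0.84 and 1.04, each with an adjusted p of 1.0 (edgeR). Unadjusted p was below 0.05 for Col4a3 and Col4a4. For Col4a5 it was -0.16 (-0.70 to 0.38) and for Col4a6 -0.09 (-1.36 to 1.19). edgeR called 0.0% of all genes, 0 of 17002 with 1363 at an unadjusted p below 0.05, and DESeq2 called 0.143% of genes and none of the chains. A substrain difference in the change after ADR was therefore not detected for any chain at this number of libraries.

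**Figure D4:**
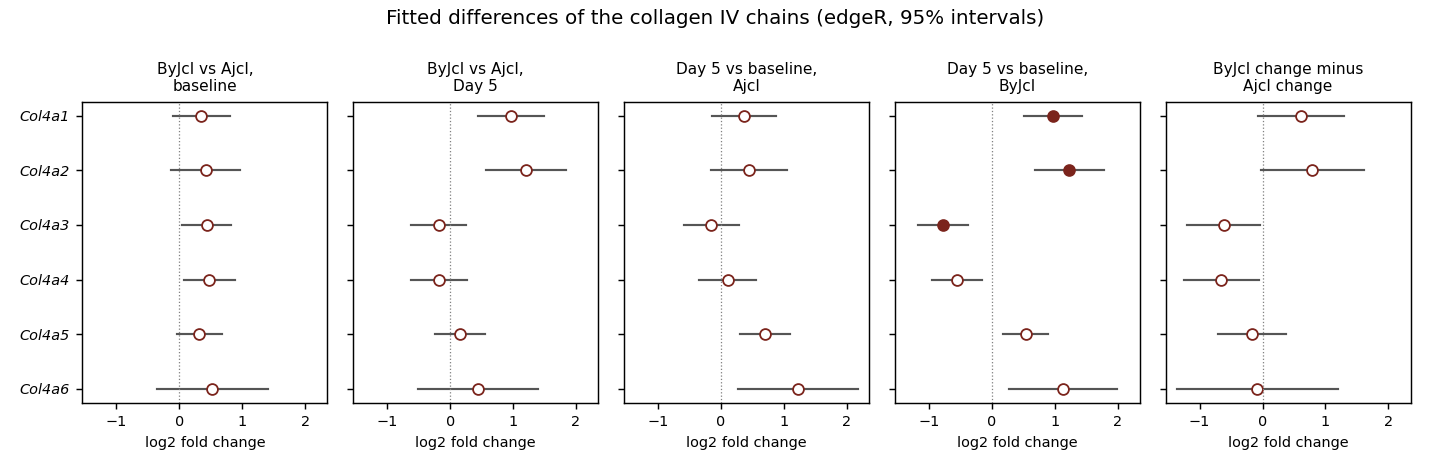
Log2 fold changes (horizontal axis, points) with 95% intervals (lines) of the 6 chains in the 5 comparisons from edgeR over 11 libraries, with filled points for adjusted p below 0.05. Filled points appear only for Col4a1 (0.98), Col4a2 (1.23) and Col4a3 (-0.77) after ADR in ByJcl.

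Other genes of collagen IV biology were read from 5 lists with 58 tested members. After ADR in ByJcl 9 of the 58 rose and 4 fell, beside 5.75% of all genes higher and 4.83% lower, with a median log2FC of -0.01 beside 0.01 for all genes. The 9 include Mmp10, which passed the filter on low counts only through Day 5 libraries, where it was high. In Ajcl none was called by edgeR and DESeq2 called 1, Mmp10 again, beside 0.312% of all genes in edgeR and 1.77% in DESeq2. There 5 of the 58 had an unadjusted p below 0.05 in edgeR, beside 1666 of all 17002 genes. At baseline none was called by edgeR and DESeq2 called 2, beside 0.159% and 0.631% of all genes. Unadjusted p was below 0.05 in edgeR for 10 of the 58, beside 1418 of all 17002 genes. Between substrains at Day 5 edgeR called 1, Loxl1, and DESeq2 8, Mmp10 among them, beside 0.165% and 3.49% of all genes. The interaction called none in either tool, beside 0.0% of all genes in edgeR and 0.143% in DESeq2. Of the 58, 4 had an unadjusted p below 0.05 in edgeR, beside 1363 of all 17002 genes.

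Of 21 genes of chain assembly tested after ADR in ByJcl, 3 fell, none rose and 18 did not pass, beside 4.83% of all genes lower and 5.75% higher, with a median log2FC of -0.03. P3h2, a prolyl 3-hydroxylase that acts on collagen IV, fell from 518 ± 18.3 to 266 ± 14.4 CPM (SD, n = 3 each), and the log2FC was -0.94 (edgeR adjusted p = 0.00784, SE 0.17). P4ha1, the catalytic subunit of prolyl 4-hydroxylase, had a log2FC of -1.47 (edgeR adjusted p = 0.0138, SE 0.31), and Plod1, a lysyl hydroxylase, of -0.62 (edgeR adjusted p = 0.0471, SE 0.18).

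Among 6 genes of cross-linking tested, Loxl1 and Loxl2 rose after ADR in ByJcl and 4 did not pass, beside 5.75% of all genes higher. Loxl1, a lysyl oxidase-like enzyme, rose from 14.1 ± 2.02 to 26.2 ± 1.89 CPM (SD, n = 3 each), and the log2FC was 0.92 (edgeR adjusted p = 0.00397, SE 0.15). At baseline Loxl1 measured 7.88 to 9.37 CPM in Ajcl and 11.9 to 15.8 CPM in ByJcl, without overlap, and the log2FC of 0.70 did not pass the threshold (edgeR adjusted p = 0.193, SE 0.15) but did with DESeq2 (adjusted p = 0.00549). Loxl1 was higher in ByJcl than in Ajcl at Day 5, with a log2FC of 1.37 (edgeR adjusted p = 0.0105, SE 0.17). Loxl2, which cross-links collagen IV in the glomerular membrane, rose with a log2FC of 0.73 (edgeR adjusted p = 0.0273, SE 0.18) from 211 ± 17.8 to 345 ± 29.9 CPM (SD, n = 3 each). Pxdn, the peroxidasin that forms the sulfilimine bond between chains, had a log2FC of 0.08 (edgeR adjusted p = 0.794, SE 0.17).

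Among 7 receptor genes, Itgb1 and Ddr1 rose after ADR in ByJcl and 5 did not pass, beside 5.75% of all genes higher. Itgb1, the β1 integrin subunit, rose with a log2FC of 0.67 (edgeR adjusted p = 0.00999, SE 0.13), and Ddr1, a collagen-binding receptor tyrosine kinase, with 0.56 (edgeR adjusted p = 0.0213, SE 0.13). The α1 integrin subunit gene Itga1 had a log2FC of -0.12 (edgeR adjusted p = 0.767, SE 0.20). Of 16 other basement membrane genes, 2 were called, beside 10.6% of all genes, a share near this background. Tinagl1 rose (log2FC 0.46, edgeR adjusted p = 0.0363, SE 0.12) and Lamb1, the laminin β1 chain, fell (log2FC -0.78, edgeR adjusted p = 0.0282, SE 0.19). The laminins of the mature membrane, Lama5 and Lamb2, had log2FC of 0.23 and -0.25 with adjusted p of 0.538 and 0.217 (edgeR).

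Of 8 genes of matrix turnover tested, 4 rose after ADR in ByJcl and none fell, beside 5.75% of all genes higher and 4.83% lower. Timp1, an inhibitor of matrix metalloproteinases, rose from 0.369 to 1.13 CPM at baseline to 3.06 to 4.46 CPM at Day 5, with a log2FC of 2.47 (edgeR adjusted p = 0.0134, SE 0.51), and Mmp14, a membrane-bound metalloproteinase, rose by 0.61 (edgeR adjusted p = 0.0430, SE 0.17). Mmp10, stromelysin-2, had 0, 2 and 0 counts in ByJcl at baseline and 141, 269 and 140 counts at Day 5. It passed the filter on low counts only through Day 5 libraries, where it was high. Its call among the 4 is therefore no independent support, and neither its fold nor its p-value is given. In Ajcl it had 0 counts in every baseline library and 4 and 44 counts at Day 5, with 0 in the library set aside. The other call was Mmp2, a gelatinase, with a log2FC of 0.79 (edgeR adjusted p = 0.0443, SE 0.22), named after its value was seen.

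Markers of the cells that make these chains also moved. Of 14 podocyte markers, 11 fell after ADR in ByJcl, among them Wt1, and Cdkn1c alone rose, named after its value was seen, beside 4.83% of all genes lower and 5.75% higher. Their summed level was 23310 to 25940 CPM in ByJcl at baseline and 11580 to 15290 CPM at Day 5, and in Ajcl 18500 to 25050 CPM at baseline and 14420 and 19850 CPM at Day 5, with 13260 CPM in the library set aside. Relative to this sum, the log2 ratio of Col4a3 averaged -3.74 in ByJcl at baseline and -3.61 at Day 5, with overlapping groups and a pooled SD of 0.16. Col4a4 averaged -4.93 and -4.59 on this scale, also with overlapping groups and a pooled SD of 0.23. At baseline both ratios were higher in ByJcl than in Ajcl without overlap, by 0.23 for Col4a3 and 0.30 for Col4a4. Relative to the same sum, Col4a5 averaged -6.77 at baseline and -5.34 at Day 5 in ByJcl, with no overlap, and -6.87 and -5.86 in Ajcl. The median log2FC of the 14 podocyte markers after ADR in ByJcl was -1.20 in edgeR, beside -0.77 for Col4a3 and -0.55 for Col4a4. The sum gives abundant markers, such as Podxl at 3728 to 8849 CPM, more weight than the median does. The part of podocyte content in the change of Col4a3 and Col4a4 was not tested.

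The 10 endothelial markers summed to 8498 to 10280 CPM in ByJcl at baseline and 5769 to 7925 CPM at Day 5, with Ehd3 and Flt1 lower, Plvap higher and 7 not passing, beside 10.6% of all genes called. The 7 mesangial markers summed to 2634 to 3113 CPM and 2620 to 3596 CPM, where Serpine2 alone rose, and the 5 smooth muscle markers to 573 to 590 CPM and 697 to 833 CPM, where Tagln alone rose. Those single calls of 7 and of 5 stand beside 5.75% of all genes higher. These named calls were chosen after their values were seen. Summed mesangial markers thus overlapped between the groups in which Col4a1 and Col4a2 rose, and smooth muscle markers did not, and the part of either was not tested. The 6 fibroblast markers summed to 71.0 to 185 CPM over all libraries, most of it Pdgfra at 54.7 to 162 CPM, with Col1a1 at 7.00 to 17.6 CPM, Lum at 0 to 10 counts and Dpt at 0 to 16 counts per library. Sums for 5 parietal epithelial markers were 85.2 to 133 CPM over all libraries, and those for 8 immune markers are given by group above. Cldn1, of the 5 parietal markers, and Cd68, of the 8 immune markers, were the only calls of these lists. Both were higher after ADR in ByJcl, beside 5.75% of all genes higher. No fibroblast, proximal tubule or distal nephron marker was called by edgeR in any comparison, where it called 0.0% to 10.6% of all genes. Among all the marker lists the only call outside ADR in ByJcl was Tagln, of 5 smooth muscle markers. It was higher in ByJcl than in Ajcl at Day 5 with a log2FC of 1.15, beside 0.165% of all genes called there.

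Likeness of profiles was measured over the 11 libraries as the root mean square difference of log2 CPM, each gene centred on its own mean, so that a small value means a similar course. Of 17001 other genes, Col4a2 was the nearest to Col4a1, with a difference of 0.15, and Col4a1 was the nearest to Col4a2. Also among the 5 nearest to Col4a1 were Dbn1 (0.18), Dhx58 (0.20) and Plvap (0.21), the last an endothelial marker of fenestral diaphragms. Col4a5 ranked 271 and Col4a6 ranked 2365 from Col4a1, and Col4a3 and Col4a4 ranked 12827 and 10045. The 5 nearest to Col4a3 were Cacna1g (0.11), Speg (0.11), Pag1 (0.12), Lpin2 (0.12) and Plekhg1 (0.13). Col4a4 ranked 23 from Col4a3 and Col4a3 ranked 42 from Col4a4, with a difference of 0.15, whereas Col4a5 ranked 11962 from Col4a3 and 10481 from Col4a4. Seen from Col4a5, Col4a1 was the nearest chain at rank 1826, with a difference of 0.33, and Col4a3 was the farthest at rank 11621, with 0.58. From Col4a6 the nearest chain was Col4a5, its neighbour on chromosome X, at rank 338. All profiles come from the same 11 libraries, so the values describe shared courses and carry no p-value.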

How the data were processed

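Glomerulus-enriched, poly(A)-selected, strand-specific RNA-seq was read in 12 libraries of 4 groups, all given as 1 batch in the labels. The authors deposited whole-number gene counts, neither normalized nor pooled, and the submitters' processing notes name FastQC, Trimmomatic, STAR, featureCounts and the build GRCm39. The annotation, strand setting and pair counting are not given in the sources used here, and 77.1% to 82.8% of counts from 1 to 49 are even. All sample columns were used.

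Counts were analysed in R 4.3.3 with edgeR 4.0.16 (TMM, filterByExpr by group, quasi-likelihood test, 1 coefficient per group, 7 residual degrees of freedom) over 11 libraries. SE is the absolute log2FC divided by the square root of F. DESeq2 1.42.0 was run on the same genes, with adjusted p left missing for genes it did not adjust. Both tests were checked on simulated data. Depth was 42198416 to 54687045 counts per library. The labels number the libraries as replicates and do not say how many mice each came from, so p-values measure the spread between libraries, which may in part be technical. Exon lengths are those of canonical transcripts, and 0.1 CPM was added before logs for likeness. Upstream windows come from RefSeq (GRCm38.p6), placed on GRCm39 by exact match.

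The members and lists were chosen with earlier results of these data known. Named genes are all 6 chains, up to 3 called genes per direction, list and comparison by adjusted p, and the 5 genes nearest to Col4a1 and Col4a3, of which 1 is not reported here. Pxdn, Itga1, Lama5, Lamb2, Mmp2 and the single cell-type markers fall outside this rule and were named after their values were seen. Alternatives were another tool, scaling, filter, set of libraries and a replicate block. Figures used Python 3.11.15, pandas 2.3.3 and matplotlib 3.10.9.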

Additional observations from a re-analysis of the deposited data

How the results depend on the processing

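Calls for the chains at baseline and for the interaction stayed at 0 under every alternative run. DESeq2 called 2 chains at Day 5, 1 after ADR in Ajcl and 6 after ADR in ByJcl, where edgeR called 0, 0 and 3. DESeq2 over all 12 libraries, an alternative chosen after seeing the data, also called 2 at Day 5 but 0 after ADR in Ajcl and 2 after ADR in ByJcl, where adjusted p was 0.054 for Col4a3, 0.249 for Col4a4, 0.0788 for Col4a5 and 0.114 for Col4a6. Leaving out 1 library gave 1 to 5 called chains after ADR in ByJcl, with 1 without ByJcl baseline library 1 and 5 without Ajcl baseline library 1 or 2.

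Some estimates that were not called turned sign, among them 0.44 for Col4a2 after ADR in Ajcl and 0.44 for Col4a6 between substrains at Day 5, and the cause was not tested. Between substrains at Day 5, adding Ajcl Day 5 library 1 gave 0.10 for Col4a3 and 0.11 for Col4a4 (0.11 and 0.12 with DESeq2), and leaving out 1 library gave -0.033 to 0.39 for Col4a5 and -0.088 to 1.30 for Col4a6. After ADR in Ajcl, Col4a4 was -0.19 with all 12 libraries (-0.18 with DESeq2), and leaving out 1 library gave -0.12 to 0.33 for Col4a4, -0.017 to 0.77 for Col4a2 and -0.33 to 0.080 for Col4a3. For the interaction, all 12 libraries gave 0.052 for Col4a5 and 0.32 for Col4a6 (0.042 and 0.32 with DESeq2), and leaving out 1 library gave -0.35 to 0.087 for Col4a5 and -0.60 to 0.79 for Col4a6.

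The log2 ratio of the α1 and α2 to the α3, α4 and α5 chains, leaving out 1 library, differed by -0.23 to 0.043 between substrains at baseline, 0.87 to 1.52 at Day 5, 0.0080 to 0.66 after ADR in Ajcl, 1.34 to 1.76 after ADR in ByJcl and 0.95 to 1.60 for the interaction.

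Over all genes, edgeR called 27 at baseline, 28 at Day 5, 53 after ADR in Ajcl, 1800 after ADR in ByJcl and 0 for the interaction, where DESeq2 called 101, 535, 301, 2694 and 22. DESeq2 over all 12 libraries called 69, 911, 326, 1999 and 7. With all 12 libraries edgeR called 72 at Day 5 and 1197 after ADR in ByJcl, with any gene that had a count 56 at Day 5 and 99 after ADR in Ajcl, and with only the 2 groups compared 15 at baseline and 6 at Day 5. Leaving out 1 library, edgeR called 12 to 29 genes at baseline, 9 to 218 at Day 5, 11 to 180 after ADR in Ajcl, 680 to 2056 after ADR in ByJcl and 0 to 5 for the interaction. Same-numbered libraries did not deviate together, with correlations from -0.387 to 0.526 (median 0.000785, 15 pairs), so the numbers do not pair them. With the replicate block, 3 chains were called after ADR in ByJcl, Col4a2 at a log2FC of 1.23, and 0 in each other comparison, and over all genes 26 were called after ADR in Ajcl and 1592 after ADR in ByJcl. Depth bears most on Col4a6, with its 28 to 178 counts per library.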
